A study of Mus musculus with 2 samples.

Results

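Crosslinks of Tia1 to RNA that the authors counted but did not keep as binding sites are described here. iCLIP (individual-nucleotide resolution UV crosslinking and immunoprecipitation) freezes protein on RNA with UV light, and reverse transcription stops beside the crosslink, so that each unique cDNA marks a bound nucleotide. The material was cytoplasmic extract of C57BL/6 splenic B cells activated for 48 h with 10 µg/ml of the bacterial lipopolysaccharide LPS, in 2 replicates of 1 group, with no untreated, isotype or nuclear sample analysed here. The titles of the samples say Tia1 and the methods describe a Tia1-specific antibody, but the label for the antibody says Tial1, a close relative. The UV dose and the RNase amount also differ between the labels and the methods. None of this was settled here. The authors pooled both replicates into a map of all crosslinked nucleotides, and then listed those whose neighbourhood of 15 nt held more cDNAs than permuted positions at a false discovery rate (FDR) under 0.05. Positions in the map and absent from that low-FDR list, matched by chromosome, nucleotide and strand, are called crosslinks below the threshold, so they were chosen by the cDNA counts themselves. There were 686397 of them among the 1107905 positions outside the mitochondrial genome, so that 38.0% of positions had been kept as low-FDR sites. They held 712755 cDNAs, 45.2% of the total. Their mm10 (GRCm38) position was set only where the nearest low-FDR rows on both sides had moved by the same number of bases, which placed 673454 crosslinks with 699149 cDNAs.

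Tia1 and its relative Tial1 are proteins with RNA recognition motifs that prefer uridine-rich RNA. In the nucleus they bind U-rich stretches just downstream of 5′ splice sites and help U1 snRNP to recognise them, and in the cytoplasm they bind U-rich and AU-rich 3′UTRs, hold back translation and take part in forming stress granules. iCLIP reads RNA binding at single nucleotides but does not by itself correct for how abundant an RNA is. The labelled cell type matched its markers: all 14 B cell markers, among them Ighm, Igkc, Pax5 and Ms4a1, had exonic cDNAs, 1656 below the threshold and 9949 at low-FDR sites. Markers of other cells had few cDNAs. Any at all were seen in 9 of 12 T cell markers (21 cDNAs below the threshold and 16 at low-FDR sites) and 6 of 12 myeloid markers (20 and 44). The same held for 3 of 8 NK cell markers (4 and 0) and 1 of 8 erythroid markers (1 and 28). Among myeloid markers Itgam (9 and 24) and Lyz2 (5 and 18) had the most, while others, such as Elane, Fcgr1 and Ly6g, were at 0.

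The sequences below show the kinds of nucleotide that fell below the threshold, read from the GRCm38 reference on the transcribed strand, with the crosslinked nucleotide in capitals. The first 4 are the positions with the most cDNAs in the 3′UTR, the CDS, introns and non-coding exons, and the others were chosen after their values were seen.
Ighm 3′UTR, 33 cDNAs (chr12:113418686-113418710, minus strand): tgccctccagctTttatctctgaga
Igkc CDS, 13 cDNAs (chr6:70726742-70726766, plus strand): caggaatgagtgTtagagacaaagg
Gm42788 intron, 40 cDNAs (chr5:149149906-149149930, plus strand): aaaccagcactgTtcaggtccctgt
Rny3 RNA, 21 cDNAs (chr6:47781636-47781660, plus strand): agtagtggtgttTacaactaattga
Etnk1 3′UTR, 15 cDNAs (chr6:143208248-143208272, plus strand): gaaatttaatttTtactactgttaa
Ebf1 intron, 2 cDNAs (chr11:44638130-44638154, plus strand): acaagactttttTtcctatatattt
Gpi1 CDS, 1 cDNA (chr7:34220715-34220739, minus strand): gctctcaagcctTactcgaaaggag
Intergenic, 84 cDNAs (chr14:44948828-44948852, minus strand): cagtgactcctgTgtcccacctggg
All 8 of these crosslinked nucleotides were uridines, which is more than the set as a whole. Of all placed positions below the threshold, 65.5% in the 3′UTR, 60.1% in the CDS, 72.02% in introns and 55.3% of intergenic ones fell on U. A Malat1 nucleotide with 16 cDNAs, for example, was a G. In the 31 nt around the crosslink, U made up 58.1% in Etnk1 and 51.6% in Ebf1, against 25.8% in the intergenic window, 19.4% in Gpi1 and 16.1% in Igkc.

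Crosslinks below the threshold were thin. Of the 686397 positions, 665955 (97.02%) rested on 1 cDNA, 18209 on 2, 2233 on 3 or more and 142 on 10 or more, with 84 as the highest count, against 271716 of the 421508 low-FDR sites (64.5%) resting on 1 cDNA. The cDNAs within 15 nt on the same strand, called the local count, had a median of 1 in crosslinks below the threshold and 10 at low-FDR sites. These counts chose the positions and are given as a description. The threshold lay near a local count of 3, since 100% of placed positions with a local count of 1, 92.4% with 2, 44.2% with 3, 17.8% with 4 and 9.20% with 5 had not been kept. At a local count of 3 the share not kept was 76.8% in introns, 33.8% in the 3′UTR and 24.0% in the CDS. A minority of the crosslinks had been called in a replicate alone: 5798 stood in the low-FDR list of replicate 1, 1201 in that of replicate 2 and 0 in both.

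Introns held most of the crosslinks below the threshold, whereas 3′UTRs held most low-FDR sites. Intronic positions made up 57.2% of cDNAs below the threshold (399970, exact 95% interval 57.1 to 57.3) and 5.90% at low-FDR sites. The 3′UTR share was 20.9% (20.80 to 20.99) below the threshold and 79.0% at low-FDR sites, a difference of -58.08 percentage points. The CDS share was 10.3% below the threshold and 6.60% at low-FDR sites, and the intergenic share was 8.57% and 4.92%. Non-coding exons (2.20% and 2.16%) and 5′UTRs (0.836% and 1.45%) stayed small. The 2 replicate lists of low-FDR sites gave 4.99 ± 0.475% intronic, 80.8 ± 1.64% 3′UTR and 5.18 ± 2.32% CDS cDNAs (mean ± SD, n = 2), so the differences of 51.31 points for introns, -58.08 for the 3′UTR and 3.70 for the CDS were larger than that spread. The CDS difference was 1.73 points with each position counted once, which is within it. The replicate lists differ in size, with 342732 positions in replicate 1 and 93512 in replicate 2, mitochondrial genome included. Their SD, here and below, may therefore carry that difference as well as replicate variation. No per-replicate map of all crosslinks was used, so the crosslinks below the threshold carry no replicate error and no test over samples was possible. All intervals cover counting error only.

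**Figure D1:**
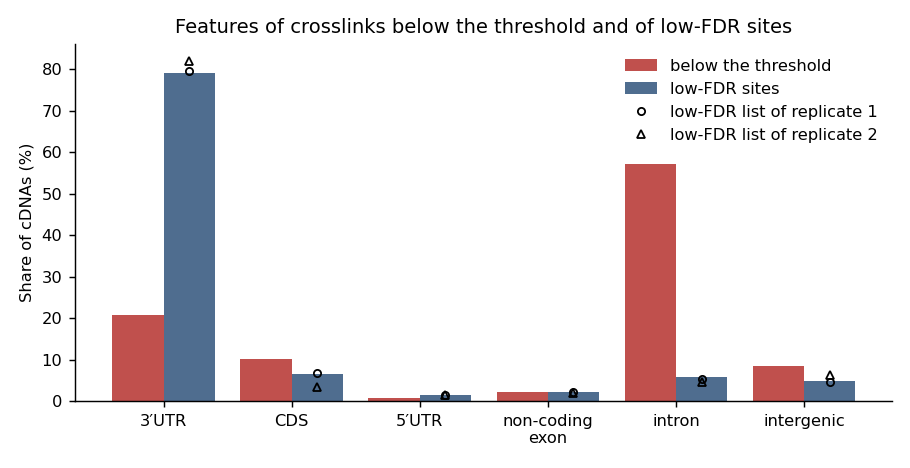
Share of cDNAs (%) by annotated feature for crosslinks below the threshold (left bars) and pooled low-FDR sites (right bars), with the low-FDR lists of both replicates as open points. Introns hold 57.2% of the cDNAs below the threshold and 5.90% at low-FDR sites, and the 3′UTR holds 20.9% and 79.0%.

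Per base, introns were the thinnest of the 5 annotated features in both sets (no density was computed for intergenic sequence). Crosslinks below the threshold had 0.345 cDNAs per kb of annotated intron, 4.34 per kb of 3′UTR and 1.97 per kb of CDS, against 0.0440, 20.3 and 1.56 at low-FDR sites. Of all intronic cDNAs 88.7% lay below the threshold, of all CDS cDNAs 55.8%, and of all 3′UTR cDNAs 17.6%. Other choices moved the size of these differences by over 1.5 times. With at least 2 cDNAs at each position the intron share was 37.2% below the threshold and 4.49% at low-FDR sites (a difference of 32.72 points), and with the rows used to place a crosslink within 10000 nt the 3′UTR difference was -38.21 points. Those rows are low-FDR sites, mostly in 3′UTRs, so the 10000 nt choice itself favours crosslinks near such sites and cannot show how well placing worked. With the low-FDR list without replicate 1 (that of replicate 2) as the comparison, the CDS difference was 6.75 points.

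Crosslinks below the threshold fell on U more often than annotated bases are U. In the 3′UTR, CDS and introns that excess was smaller than at low-FDR sites. No isotype sample was analysed, so the part of the protein in this excess was not tested. In the 3′UTR, 65.5% of crosslinks below the threshold fell on a U (exact 95% interval 65.2 to 65.7, 138004 positions) and 73.9% of low-FDR sites did, with 29.8% U among all annotated 3′UTR bases. In the CDS the values were 60.1% below the threshold and 69.8% at low-FDR sites, with 22.4% among all bases. In introns they were 72.02% and 77.6%, with 30.05% among all bases. In non-coding exons the order was turned, at 63.9% below the threshold and 63.3% at low-FDR sites. The 3′UTR difference of -8.37 points was just above the SD of the 2 replicate lists (7.81 points, n = 2) and the intron difference of -5.60 was above it (2.66), whereas the CDS difference of -9.68 (10.5) and that of non-coding exons (0.69, with 4.28) were within it. The 3′UTR difference was -4.59 points with at least 2 cDNAs at each position, -16.64 points when each cDNA was counted, and -19.08 points without replicate 1 in the low-FDR set, since the list of replicate 2 had 84.6% U.

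The surrounding sequence differed between the sets too. In the 31 nt centred on the crosslink, 3′UTR positions below the threshold averaged 33.8% U and low-FDR sites 44.7%, with 29.8% around all 3′UTR bases. In the CDS the averages were 27.2% and 34.6% (22.8% around all CDS bases), and in introns 39.9% and 46.3% (30.04% around all intronic bases). The 3′UTR difference of -10.91 points exceeded the SD of the replicate lists (3.41 points, n = 2), as did those of -7.49 in the CDS (3.81) and -6.39 in introns (1.39). UUUUU, searched on the transcribed strand in the same 31 nt, was found in 12.1% of 3′UTR windows below the threshold, 38.8% at low-FDR sites and 7.44% around all 3′UTR bases. In introns it was found in 23.6%, 39.5% and 6.81%. Within genes the direction was the same: of 3145 genes with at least 10 3′UTR positions in each set, 3098 (98.5%) had less U around the crosslinks below the threshold, with a median difference of -12.59 points (quartiles -16.31 and -9.19). Genes are not replicates, and this is a count only.

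**Figure D2:**
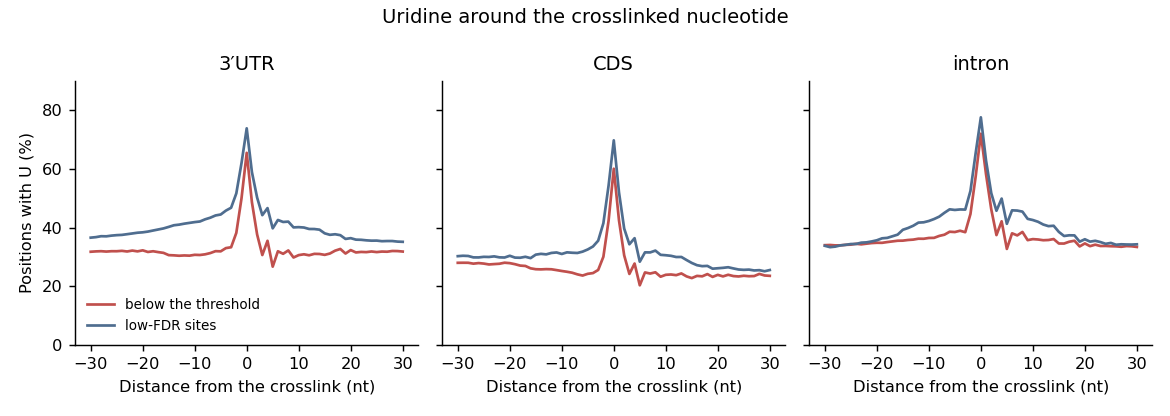
Share of positions with U (%) at each distance from the crosslink (nt) in the 3′UTR, CDS and introns, for crosslinks below the threshold and low-FDR sites. Both peak at the crosslink, at 65.5% and 73.9% in the 3′UTR. At 1 nt before it U stands at 49.99% and 62.0%, and 30 nt after it at 31.8% and 35.1%.

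Other short words differed as well. Among 5-letter words found in at least 1% of 3′UTR windows of either set, those relatively rarest below the threshold, after UUUUU itself, were the word UUUUA (12.8% of windows below the threshold and 33.2% at low-FDR sites), AUUUU (12.9% and 31.6%) and UUAUU (7.82% and 19.1%), which overlap each other. Those relatively most frequent below it were G-rich, such as GCAGG (2.24% and 0.848%) and GGCUG (2.91% and 1.11%). In introns those relatively rarest below the threshold were GGUAA (2.29% below the threshold and 5.00% at low-FDR sites) and GUAAG (2.52% and 4.89%), words that also occur in the consensus of the 5′ splice site.

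Uridine at the crosslink also varied with the local count, in a different way in each feature. In introns, U stood at 70.6% of crosslinks below the threshold with a local count of 1 (312631 positions), 77.3% with 2 and 80.3% with 3 (15108 positions), beside 78.6% of low-FDR sites with a local count of 3. That difference was smaller than the SD of the replicate lists (2.66 points, n = 2). Around them, 31 nt held 46.1% U below the threshold and 44.9% U at those low-FDR sites. Among denser intronic crosslinks below the threshold the share on U was 76.0% with a local count of 4, 64.03% with 5 to 9 and 48.5% with 20 or more (66 positions, interval 35.99 to 61.1), against 80.8%, 79.8% and 69.3% at low-FDR sites. Many of these 66 positions lie in Gm30211, a gene model that overlaps Igkc, so that value describes few transcripts. In the 3′UTR the share was 64.4% with a local count of 1, 67.8% with 2 and 65.6% with 3, against 73.2% at low-FDR sites with 3. In the CDS it was 58.6% with a local count of 1, 62.2% with 3 and 28.7% with 20 or more (143 positions, interval 21.4 to 36.8), against 62.6% at low-FDR sites with 20 or more. Most of these dense CDS crosslinks lie in Igkc, the kappa light chain constant region, so the last value describes chiefly that transcript.

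Intronic crosslinks below the threshold gathered downstream of 5′ splice sites. In introns of at least 1000 nt from principal coding transcripts (29304 introns with 220117 cDNAs below the threshold), nt 11 to 30 after the 5′ splice site held 4581 cDNAs, 5.09 times the number that an even spread within each intron would give. The ratio was 1.75 in nt 1 to 10, 2.78 in nt 31 to 50, 1.95 in nt 51 to 100 and 1.00 in nt 201 to 500, and the highest single nucleotide was nt 12 with 357 cDNAs. Low-FDR sites showed the same place at 23.3 times in nt 11 to 30 (2858 cDNAs in 2233 introns). The bases there were hardly richer in U than the next ones, with 31% U in nt 11 to 30 and 30.3% in nt 31 to 50 over the introns examined. Next to the 3′ splice site, the last 10 nt of the intron had 2.89 times the even number below the threshold and 4.68 times at low-FDR sites. Nt 11 to 30 before the exon, with 44.1% U, had 1.55 times the even number below the threshold and 0.897 times at low-FDR sites. Within them, cDNAs below the threshold lay chiefly in the part farther from the exon, where U was lower. Nt 11 held 41 of them with 59.8% U, and nt 23 held 121 with 38.6% U. Most intronic cDNAs lay deep inside, with 75.02% below the threshold and 53.8% at low-FDR sites over 500 nt from either splice site.

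**Figure D3:**
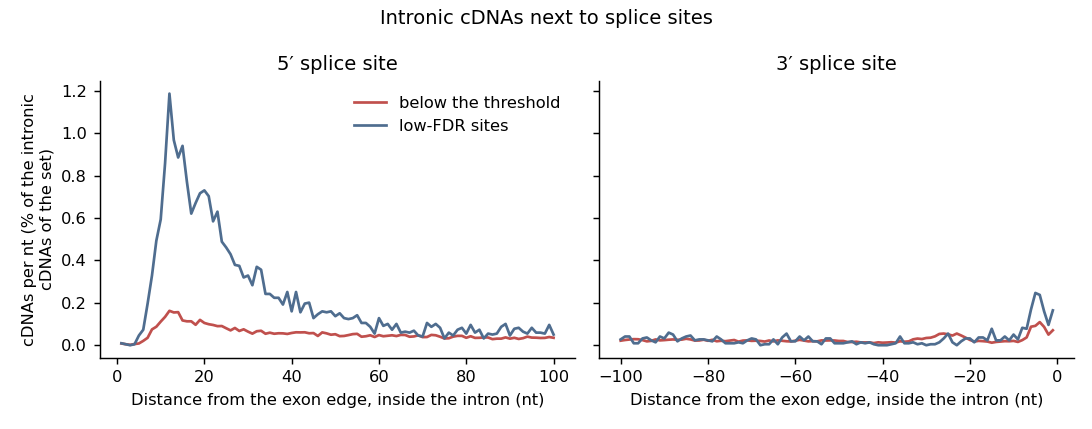
Intronic cDNAs per nucleotide, as a percentage of each set's intronic cDNAs, against the distance from the exon edge (nt) after the 5′ splice site (left) and before the 3′ splice site (right). Both sets peak 12 nt after the 5′ splice site, where crosslinks below the threshold have 357 cDNAs.

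The genes with the most intronic cDNAs below the threshold were long genes, among them regulators of B cells. Ebf1, a transcription factor that sets B cell identity, had 1379 intronic cDNAs below the threshold and 138 at low-FDR sites. Its exons were the reverse, with 58 below the threshold and 1636 at low-FDR sites. Fchsd2, an adaptor in endocytosis, had 1166 and 115 intronic cDNAs, and Foxp1, a transcription factor needed for B cell development, had 1150 and 42. Phip had 1034 and 95, and Bank1, a B cell scaffold protein of receptor signalling, had 958 and 135. Per kb of gene this came to 3.53 cDNAs below the threshold in Ebf1, 6.09 in Fchsd2, 1.93 in Foxp1, 9.46 in Phip and 3.51 in Bank1. In Foxp1 and Ebf1 the exons were almost wholly above the threshold, with 3.14% and 3.42% of exonic cDNAs below it. Among genes with at least 50 such cDNAs, chosen after the data were seen, Mir142hg (53.1 per kb), Hnrnpa2b1 (31.4), Rbm15 (27.6) and Srsf2 (21.9) were the densest with Gm30211, a gene model that overlaps Igkc (39.8). Hnrnpa2b1, Rbm15 and Srsf2 encode RNA-binding proteins. Exons of non-coding transcripts of such protein-coding genes were counted as intron here. The extract was labelled cytoplasmic, and the nuclear RNAs Malat1 (1759 cDNAs below the threshold and 2855 at low-FDR sites) and Neat1 (119 and 20) were crosslinked in it too. The part of nuclear RNA in the intronic values was not tested.

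In exons, the genes with the most cDNAs below the threshold were among the most heavily crosslinked ones. Malat1, a nuclear long non-coding RNA, led with 1759 exonic cDNAs below the threshold and 2855 at low-FDR sites. Ighm, the constant region of the IgM heavy chain, had 721 and 1574, and Etnk1, an ethanolamine kinase, had 592 and 806. The ER protein gene Serp1 had 508 and 2720, and Scd1, the stearoyl-CoA desaturase, had 481 and 2403. Purb (465 and 454), Irf2bp2 (384 and 473), Ago2, the small-RNA-guided Argonaute protein (372 and 272), 1700020I14Rik (361 and 460) and Cdk6, the G1 cyclin-dependent kinase (354 and 47), completed the first 10. Over all genes 23.7% of exonic cDNAs assigned to 1 gene lay below the threshold, and this share was lower in deeper genes: its median over genes was 62.5% at 10 to 19 exonic cDNAs, 33.7% at 50 to 99 and 15.5% at 200 or more.

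**Figure D4:**
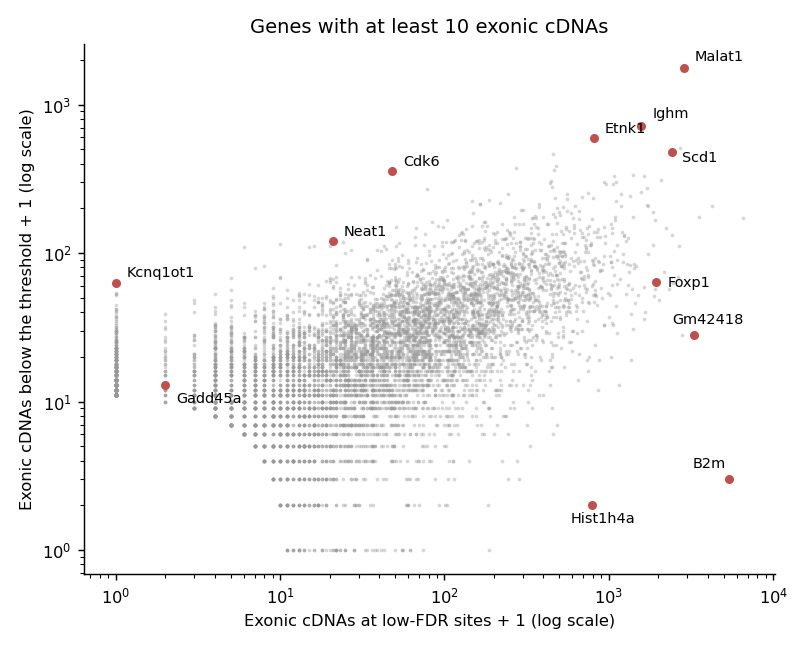
Exonic cDNAs below the threshold (vertical, plus 1, log scale) against those at low-FDR sites (horizontal, plus 1, log scale) for the 7680 genes with at least 10 exonic cDNAs, each a grey point, with named genes in red. Cdk6 stands high at 354 and 47 cDNAs, B2m low at 2 and 5352.

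Genes with at least 200 exonic cDNAs differed widely in how much fell below the threshold. The share was highest in Cdk6 (88.3%, exact 95% interval 84.7 to 91.3), Seh1l, a nucleoporin (77.7%), Lpp (68.9%), Ptar1 (65.8%) and Ptpn4 (64.1%). It was lowest in B2m, the invariant chain of class I histocompatibility molecules (2 of 5354 cDNAs, 0.0374%), the histone genes Hist1h4a (1 of 788) and Hist1h4b (2 of 286), Ptma (2 of 246) and the gene model Gm42418 (27 of 3306). Hist1h4a and Hist1h4b belong to a family of near-identical copies, so their counts are uncertain. A stack in Gm42418 coincides with the RefSeq gene Rn18s-rs5, named for 18S ribosomal RNA. Its count may be that of a repeated RNA, which was not tested. In 2447 of 3904 genes with at least 50 exonic cDNAs and both kinds of position, every exonic crosslink below the threshold had a lower local count than every low-FDR site of the gene. In the other 1457 they overlapped. The lowest local count of a low-FDR site was 2 in Serp1, Ago2 and Cdk6, 10 in Purb and 33 in Malat1.

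Longer 3′UTRs had more of their cDNAs below the threshold. Summed over all principal transcripts of genes with a coding or 3′UTR cDNA, the share below the threshold was 7.84% for 3′UTRs of 300 to 499 nt (848 genes), 15.3% for 1000 to 1999 nt (1853 genes) and 26.4% for 4000 nt or more (518 genes). The density below the threshold was 9.52, 8.32 and 7.63 cDNAs per kb in these classes, and that of low-FDR sites 111.9, 46.1 and 21.2 per kb. These sums were added after the data were seen. Over genes with at least 50 3′UTR cDNAs the median share was 4.41%, 14.3% and 34.9%, but that minimum itself demands a higher density of short 3′UTRs. Along the 3′UTR, crosslinks below the threshold were spread evenly, with 27.3% of 3′UTR cDNAs in the first 5 of 20 equal bins and 23.0% in the last 5, against 35.1% and 24.7% at low-FDR sites. At the stop codon they showed little step: the last 50 nt of the coding region had 44.1 cDNAs per nt and the first 50 nt of the 3′UTR 52.2 below the threshold, against 71.2 and 325.2 at low-FDR sites.

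A set of genes was seen only below the threshold. Of 14092 genes with an exonic cDNA, 5739 had no low-FDR exonic position (40.7%), most of them with few cDNAs. Of 7680 genes with at least 10 exonic cDNAs, 475 had none (6.18%), of which 332 were protein-coding, 49 TEC gene models, 17 lincRNAs, 15 processed pseudogenes and 12 antisense RNAs. The share was 23.7% at 10 to 19 exonic cDNAs, 3.78% at 20 to 49, 0.265% at 50 to 99 (4 of 1509 genes), and 0 of 1177 genes from 100 to under 200 and 0 of 1229 at 200 or more. The count depended on the list used as the comparison: against the low-FDR list without replicate 2 (that of replicate 1) it was 750 genes, and without replicate 1 (that of replicate 2) it was 2554. The list of replicate 2 is the smaller, with 93512 positions against 342732.

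The deepest of these genes was Kcnq1ot1, the antisense RNA of the imprinted Kcnq1 domain, with 62 cDNAs at 62 separate nucleotides and no local count above 1. Slc5a3, the sodium and myo-inositol cotransporter, had 41 cDNAs with a highest local count of 3, and Ttll4, a tubulin polyglutamylase, 40 with a highest of 3. Gpi1, the glycolytic enzyme glucose phosphate isomerase, had 39 with a highest of 4, of which 24 were in its CDS and 13 in its 3′UTR. These cDNAs were spread thinly. The small nuclear RNA gene Rnu11, U11 of the minor spliceosome, differed, with 37 cDNAs on 17 nucleotides and a local count of up to 17. The snRNA model Gm25360 had 52 cDNAs and a local count of up to 18, and Bcl9l, a coactivator in Wnt signalling, 51 and up to 20. Gm45223 (53 cDNAs), Zkscan7 (44) and Gm38372 (41) completed the first 10.

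Among the gene lists with over 1000 exonic cDNAs, nuclear and structured non-coding RNAs had the largest part of summed cDNAs below the threshold. They had 2117 cDNAs below the threshold and 3354 at low-FDR sites, 38.7% against 23.7% over all genes. Malat1 alone held 1759 and 2855 of these. By the median share over genes this list stood at 41.9%, under the 63.6% of all genes with a cDNA. Only 3 of 11 members with cDNAs (27.3%) had no low-FDR position, against 40.7% of all genes with a cDNA. Neat1, the scaffold RNA of paraspeckles, had 119 below the threshold and 20 at low-FDR sites, Gas5 78 and 108, and Rn7sk, the 7SK RNA, 8 and 250. Replication-dependent histones had the smallest part of summed cDNAs among those lists, 266 and 4467 (5.62%), and all 23 members with cDNAs had a low-FDR position. Much of that low-FDR count came from Hist1h4d (50 and 1885) and Hist1h4a (1 and 787), of the family of near-identical copies. By the median share over genes histones stood at 15.2% and were not the lowest, with ER chaperones at 14.6%. ER chaperones and genes of the unfolded protein response had 904 and 6973 (11.5%), with Hsp90b1 at 94 and 222 and Canx at 82 and 1340. Translation factors had 894 and 4156 (17.7%), among them Eif4g2 at 184 and 588 and Eif4g1 at 77 and 48. Cytosolic ribosomal proteins had 325 and 1258 (20.5%), with 6 of 31 seen only below the threshold, against 40.7% of all genes with a cDNA. These are descriptions, and depth and 3′UTR length, which moved with the share above, were not matched between lists.

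The 9 genes listed from the study's text each had low-FDR sites, to unequal extents. Trp53, which encodes p53, had 35 exonic cDNAs below the threshold and 409 at low-FDR sites. Hif1a, the hypoxia-inducible transcription factor, had 75 and 466, H2-K1 46 and 280, and the cyclin Ccnd2 336 and 1393. Cdkn1a, the p21 inhibitor of the cell cycle, had 13 and 37. Gadd45a, induced by DNA damage, rested almost wholly below the threshold, with 12 cDNAs there and 1 at a low-FDR site. Tia1 and Tial1 transcripts had 65 and 97, and 69 and 131, and Dcp1a of P-bodies had 47 and 71. The p53 list as a whole had 893 and 2529 (26.1%), with 3 of 19 members (15.8%) only below the threshold, against 40.7% of all genes with a cDNA. Zmat3, a p53-induced RNA-binding protein, had 67 and 4, while Trp53inp1 had 302 and 1104 and Btg2 had 176 and 352. Among stress granule and P-body components (1238 and 5803 in all), Fxr1 had 78 below the threshold and 6 at low-FDR sites and Dcp2 126 and 259, while Edc4, an enhancer of decapping, had 8 and 0. Of 15 cytokine and chemokine genes with a cDNA, 6 were seen only below the threshold, close to the 40.7% of all genes. Ccl22 was one, with 11 cDNAs, while Il6 had 18 and 41, Tnf 17 and 31, and Il10 11 and 32.

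Some crosslinks below the threshold were dense. A local count of 20 or more was reached by 1975 positions with 6151 cDNAs, which formed 242 stacks: 78 in 3′UTRs, 74 in non-coding exons, 56 intergenic, 16 in the CDS, 14 in introns and 4 in 5′UTRs. The largest lay next to the annotated 3′ end of Ighm (chromosome 12, 113418626 to 113418750, minus strand), where 87 nucleotides held 508 cDNAs, 78.5% of them on U, 2011 nt from the nearest low-FDR site. Ighm makes membrane and secreted IgM through alternative 3′ ends. The lowest local count of a low-FDR site in the Ighm 3′UTR was 39, and the stack reached 182. In Etnk1 a stack (chromosome 6, 143208206 to 143208275, plus strand) held 208 cDNAs on 48 nucleotides, 89.9% on U, 1586 nt from the nearest low-FDR site. In Rny3, a Y RNA bound by the Ro60 protein, 19 nucleotides held 97 cDNAs. In the CDS of Igkc, 2 stacks held 124 and 109 cDNAs, 29.8% and 44.95% of them on U, within 2 nt of low-FDR sites.

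In several 3′UTRs a whole stretch lacked low-FDR sites. Among 1184 genes with at least 200 exonic cDNAs, 40 had a stretch between neighbouring low-FDR positions of the 3′UTR, or beyond the last of them, that held at least 50 cDNAs below the threshold, and in 30 of these its local count reached that of some low-FDR site of the same 3′UTR. In Cdk6, 8869 nt of 3′UTR (chromosome 5, 3522140 to 3531008) held 339 of the 350 3′UTR cDNAs below the threshold and no low-FDR site, with a local count of up to 27 and 38.9% U in the 31 nt around each crosslink, while low-FDR sites of that 3′UTR started at a local count of 2. In Irf2bp2, 2395 nt (chromosome 8, 126588296 to 126590690, minus strand) held 323 cDNAs with a local count of up to 38. In Ago2, 1778 nt (chromosome 15, 73095844 to 73097621, minus strand) held 167 with up to 19, and in Rab10, a small GTPase, 2066 nt (chromosome 12, 3247428 to 3249493, minus strand) held 150 with up to 22. Rab10 was chosen after its values were seen.

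Dense crosslinks below the threshold often faced a gene on the opposite strand. With a local count of 20 or more, 36.5% of positions below the threshold (721 of 1975, exact 95% interval 34.4 to 38.7) had an annotated gene on the other strand, and 10.3% of low-FDR sites of the same local count did. The shares were 29.9% and 8.73% at a local count of 10 to 19, 22.9% and 8.53% at 5 to 9, and 7.93% and 7.49% at 2. Positions of a stack share their target: counted once each, 85 of 242 stacks (35.1%) faced a gene. Within 3′UTRs, 37.1% of positions below the threshold with a local count of 20 or more did, against 9.99% of low-FDR sites. Counted as stacks, 22 of 78 in 3′UTRs did (28.2%). Many of the 3′UTR positions that faced a gene lie in Etnk1, Irf2bp2 and Seh1l, so this share too rests on few transcripts. In introns the shares were 18.2% (12 of 66 positions, interval 9.76 to 29.6) and 10.8%, which that interval covers. A single Gm42788 stack opposite Hmgb1 has 8 positions of this kind. Other features ran the other way, with 7.39% (of 595 positions) and 28.8% in non-coding exons and 0.699% (1 of 143) and 7.66% in the CDS. Many of these non-coding positions lie in Malat1 and most of the CDS ones in Igkc, so these shares describe few transcripts. Of the 40 3′UTR stretches described above, 9 lay mostly opposite a gene, those of Etnk1, Irf2bp2 and Rab10 wholly, and 31, among them Cdk6 and Ighm, had no crosslink opposite one.

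**Figure D5:**
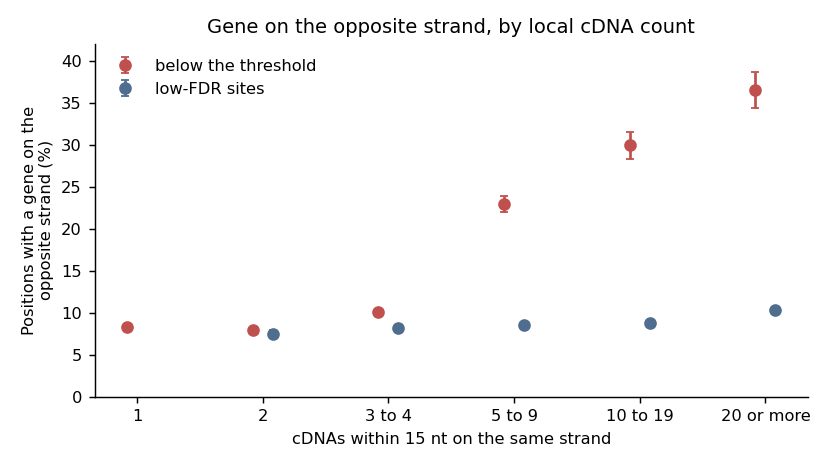
Share of positions with an annotated gene on the opposite strand (%) against the number of cDNAs within 15 nt, for crosslinks below the threshold and low-FDR sites. Bars are exact 95% intervals. The share reaches 36.5% below the threshold at 20 or more cDNAs and 10.3% at low-FDR sites.

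Outside annotated genes of the crosslinked strand the shares were higher still. Of 56 intergenic stacks, 51 (91.1%) faced a gene, 45 were over 1000 nt from any low-FDR site, and 0 held a position of either replicate's low-FDR list. By position, 86.1% of intergenic crosslinks below the threshold with a local count of 20 or more faced a gene, 31.1% of those with a lower count, and 11.4% of intergenic low-FDR sites with 20 or more. The highest single nucleotide of all lay in such a stack on chromosome 14, where 7 nucleotides (44948838 to 44948844, minus strand) held 110 cDNAs opposite Gm16976, 84 of them at the nucleotide shown above. Others lay opposite Itga9 (152 cDNAs on 13 nucleotides), Trappc9 (96 on 7) and Prkca (90 on 7). The genome just downstream of the Trappc9 stack resembles a common sequencing adapter, so its cDNAs may not be crosslinks, which was not tested. Of the 56 intergenic stacks, 14 coincided with a RefSeq exon or pseudogene on the crosslinked strand, with a tRNA gene in 2. Among the 14 were stacks at Fbl-ps2 opposite Tulp4 (116 cDNAs) and at Gm14227 opposite Itch (107).

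These intergenic stacks differed in sequence from one another. The Itch stack had 95.3% of its cDNAs on U and the Itga9 stack 31.6%. A run of at least 8 A within 30 nt downstream of the highest nucleotide was present in 17 of the 56 intergenic stacks and in 1 of the 78 stacks in 3′UTRs. By position, 20.6% of intergenic crosslinks below the threshold with a local count of 20 or more had such a run (exact 95% interval 17.0 to 24.5), 9.39% of those with a lower count and 15.1% of intergenic low-FDR sites with 20 or more. In 3′UTRs the shares were 0.877%, 0.732% and 1.39%. Lower-case repeat sequence held 48.9% of intergenic crosslinks below the threshold with a local count of 20 or more, 37.2% of those with a lower count and 38.7% of intergenic low-FDR sites with 20 or more. The part of repeated sequence in these stacks was not tested. Without any crosslink of a local count of 20 or more, the intron share below the threshold was 57.7% and the 3′UTR share 20.8%.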

How the data were processed

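Per the file headers, each deposited value is the count of distinct cDNAs at 1 crosslinked nucleotide of mm9, with its sign giving the strand, which the authors made with iCount and Bowtie (versions not given in the sources used here) after collapsing PCR duplicates by random barcode, as their methods state. Low-FDR sites came from 100 permutations with a neighbourhood of 15 nt, FDR under 0.05, regions taken separately, on Ensembl 59. The map of all crosslinks was pooled over both replicates, 1582633 cDNAs in all. Placing was checked by leaving out each low-FDR row in turn: 99.8% could be placed, all correctly. For the crosslinks placed, the farther of the rows used lay a median of 23298 nt away, and over 10000 nt away for 422331. The check used low-FDR rows only and was not split by that distance, so it does not settle how well distant placing worked. Of the crosslinks not placed, 10928 lay between rows that had moved differently, 750 outside the outermost rows and 1265 on contigs without any. Features followed GENCODE M21 by strand, in the order CDS, 3′UTR, 5′UTR, exon of a non-coding gene, intron, intergenic, and sequence the RefSeq GRCm38 genome. Exons of non-coding transcripts of protein-coding genes were counted as intron unless an earlier feature covered them. Genes named in the text were the 10 with the most exonic and 5 with the most intronic cDNAs below the threshold, the 10 deepest without a low-FDR exonic position, 5 of highest and 5 of lowest share at 200 exonic cDNAs, the study's genes and members of 15 lists. Stacks, stretches and genes ranked per kb were chosen after their values were seen. Alternatives were other counting units, feature orders, distances, windows and count minimums, repeats left out, and each replicate's low-FDR list in place of the pooled one. Functions were tested on simulated data. Scripts ran in Python 3.11.15 with pandas 2.3.3, numpy 2.4.6, scipy 1.17.1 and matplotlib 3.10.9. How reads matching several places were handled was not stated in those methods. The positions, lists and comparisons were chosen with earlier results of these data known.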

Additional observations from a re-analysis of the deposited data

Results flagged for a closer look

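Some crosslinks below the threshold could not enter any comparison. Unplaced contigs of mm9, which held no low-FDR site, carried 1265 positions with 1516 cDNAs, led by those of chromosome 9 (449 cDNAs), chromosome 1 (417) and those assigned to no chromosome (258), with a local count of up to 74 on a contig of the X chromosome. They were singled out because the low-FDR list is empty there. The mitochondrial genome carried 1527 positions with 2607 cDNAs below the threshold and 642 low-FDR positions, and was left out throughout. No control sample was analysed, so both are given as counts only.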

How the results depend on the processing

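All differences are given below the threshold minus low-FDR sites, in percentage points. The 3′UTR difference of -58.08 was -56.32 with positions counted once, -48.83 with at least 2 cDNAs, -38.21 with placing rows within 10000 nt and -51.72 without lower-case repeat sequence. The intron difference of 51.31 was 50.20, 32.72, 35.35 and 47.30 under the same choices, and 52.84 over 15 nt from any low-FDR site. Placing rows are low-FDR sites, mostly in 3′UTRs, so the 10000 nt choice itself favours crosslinks near them. U at the crosslink (-8.37) was -16.64 by cDNAs. U in 31 nt (-10.91) was -7.49 in the CDS, -6.39 in introns and -7.33 without repeats. Genes seen only below the threshold (475) were 1371 at 5 cDNAs and 84 at 20. Leaving out a replicate's low-FDR list gave -61.02 to -58.69 (3′UTR), 3.47 to 6.75 (CDS), 51.88 to 52.56 (introns), -19.08 to -8.04 and -15.74 to -10.92 (U) and 750 to 2554 genes. No alternative turned a direction. The intronic U comparison and the removal of dense positions were chosen after seeing the data. No paired analysis was possible because there was 1 group. Thin counts limit what can be said of a single position, 97.02% of which rest on 1 cDNA. The causes were not tested.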
